A study of Mus musculus with 1073 samples.

Results

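The genes described here were the 8 members of the mouse globin clusters that the deposited expression table lists by the names Hba-x, Hba-a1, Hba-a2, Hbb-bh1, Hbb-y, Hbb-bt, Hbb-bs and Hbb-bh0. They were chosen by name, and they were 8 of the 15967 genes in that table. Their detection, level, order of appearance and ratios within single cells were followed through 13 populations sorted from the mouse yolk sac. The 926 cells had been captured one by one on the Fluidigm C1, a microfluidic chip that turns each captured cell into its own sequencing library.

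Each library was a single cell, and no label ties a cell to an embryo or a pool. A population was therefore treated as 1 sample, no test between populations was made, and the printed intervals are exact Clopper-Pearson 95% intervals over cells that cover counting error only. Where no cell had a gene, the limit given is 3 cells of the total. The Flk1-GFP+ populations of E7.25 (neural plate stage) and E7.75 (early headfold stage) came from Flk1-GFP/+ embryos, in which the Flk1 (Kdr) locus drives GFP. Each was sequenced on 2 lanes, with 73 and 74 cells at E7.25 and 53 and 87 cells at E7.75. All later populations came from C57BL/6 embryos. Haematopoietic progenitor/colony forming cells (HPC, which the labels call yolk sac EMP) were TER119-CDH5+CD41+ at E8.25 (73 cells) and E8.5 (89 cells), and TER119-CDH5-CD45+CD41low at E9.5 (46 cells) and E10.5 (87 cells). Primitive erythrocytes (EryP) were TER119+, CD41- and CDH5- at E8.5 (66 cells), and in addition CD45- at E10.5 (3 cells). Megakaryocytes (Mk) were TER119-CDH5-CD41+ at E8.5 (37 cells) and TER119-CDH5-CD45-CD41high at E10.5 (73 cells). Macrophages (Mac) were sorted at E10.5 as TER119-CDH5-CD41-CD45+ (25 cells), and endothelium (Endo) as CDH5+ cells without TER119 or CD41 at E8.5 (79 cells), and also without CD45 at E10.5 (61 cells). The TER119 antibody marks erythroid cells, so that every population other than EryP and the Flk1-GFP+ cells was gated against them.

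Haemoglobin is built from alpha-like and beta-like chains, each bound to haem, and the genes of either kind lie side by side in a cluster that is switched during development. The first red cells of the mouse arise in the yolk sac and use the embryonic zeta chain of Hba-x and the embryonic beta-like chains of Hbb-bh1 and Hbb-y beside the alpha chain of Hba-a1 and Hba-a2, whereas the adult beta chains come from Hbb-bs and Hbb-bt in this strain. Hbb-bh0 is annotated as a pseudogene.

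In the GRCm38 annotation the alpha cluster lies on chromosome 11, plus strand, with Hba-x at 32276400-32278116, Hba-a1 at 32283511-32284465 and Hba-a2 at 32296489-32297298. The beta cluster lies on chromosome 7, minus strand, and its order along transcription is Hbb-y (103851749-103853216), Hbb-bh0 (103850020-103850148), Hbb-bh1 (103841637-103843164), Hbb-bs (103826534-103828096) and Hbb-bt (103812524-103813996). The 300-base promoter windows of Hba-a1 and Hba-a2 were identical over 297 bases at an offset of 3 bases. Of the stretches of 100 bases in the Hba-a2 transcript, 74.5% were also in Hba-a1, and 62.6% of those of Hbb-bs were also in Hbb-bt. Reads from such copies could be split or dropped in counting, so the pairs were summed as alpha (Hba-a1 and Hba-a2) and adult beta (Hbb-bs and Hbb-bt), and values of a single copy are uncertain.

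The 2 promoter stretches below, one from each cluster, are shown because Hbb-y was the globin whose share differed most between the stages of EryP, while that of the alpha genes, for which Hba-a2 stands, hardly differed. They end at the base before the annotated start, run 5′ to 3′ on the gene's strand, and are from RefSeq on GRCm38.p6 (Hbb-y, chr7:103853217-103853327, minus strand, and Hba-a2, chr11:32296372-32296488, plus strand). Capitals mark matches on either strand to the motif CACCC or its longer form CCACACCC (which overlaps it), to the GATA motifs spelt AGATAA and spelt TGATAA, to the box CCAAT and to the TATA-like letters ATAAA.
Hbb-y: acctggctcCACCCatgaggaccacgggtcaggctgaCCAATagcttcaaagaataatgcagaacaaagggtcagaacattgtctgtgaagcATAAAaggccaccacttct
Hba-a2: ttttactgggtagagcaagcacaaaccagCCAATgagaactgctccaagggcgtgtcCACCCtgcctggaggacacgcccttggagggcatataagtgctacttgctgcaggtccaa
Of the 8 genes, 6 had a promoter in the RefSeq table, and in the 250 bases before the start CACCC, the core of the sequence bound by KLF1, was found in 6 of 6, against 52.0% of 32851 promoters of all genes. CCAAT was found in 5 (all but Hba-x; 33.8% of all promoters), TGATAA in 4 (Hba-x, Hba-a1, Hba-a2 and Hbb-y; 7.94%), ATAAA in 3 (Hba-x, Hbb-y and Hbb-bt; 37.3%), AGATAA in 1 (Hbb-bs; 9.99%) and CCACACCC in 1 (Hbb-bs; 3.20%). These matches are a description of letters and were not tested for binding.

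Across all 926 cells, each held between 483830 and 5943204 counts in the filtered genes, with a median of 1887347. All populations at E7.25, E8.25 and E8.5 were sequenced on one flow cell and all those at E7.75, E9.5 and E10.5 on the other, so a difference between these 2 sets of stages cannot be told apart from the sequencing run. Levels are the deposited CPM, which were scaled by scran size factors and therefore summed to between 699615 and 4176737 per cell. Of the 6 listed erythroid markers 5 were in the table, and their summed level was 1956 to 6179 CPM in E8.5 EryP and 4792 to 9830 CPM in E10.5 EryP, where the endothelial and megakaryocyte markers were all at 0 and the macrophage markers summed to at most 1.49 CPM. The E8.5 Mk population stood apart from its label, with summed megakaryocyte markers (Pf4, Gp9, Gp1bb, Vwf and Itga2b) at a median of 184 CPM and erythroid markers at a median of 1094 CPM, whereas E10.5 Mk had medians of 5331 CPM and 446 CPM. It is named below by its label.

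The first question was which globin was found in the earliest populations. Hba-x was in none of the E7.25 Flk1-GFP+ cells, a limit of 2.04% of the cells. Hbb-bh1, the embryonic beta H1 chain, was found in 9.52% of the cells, no more than in E8.5 endothelium (10.1%), which should lack globin and had a similar median depth (1822221 against 1874645 counts). One E7.25 cell held 2141 of the 3381 Hbb-bh1 counts at 1482 CPM, with 37 counts of Hbb-y and none of Hba-x. Without that cell the mean Hbb-bh1 level over the population was 4.98 CPM in place of 15.0 CPM. Haemato-endothelial cells, taken as those in which at least 4 of Tal1, Lmo2, Hhex, Fli1, Gata2 and Kit were found, made up 13 of the 14 positive cells. They had Hbb-bh1 in 15.1% (8.30-24.5%) of 86 cells, against 1.64% (0.0415-8.80%) of the 61 others, and in 22% on one lane and 5.56% on the other.

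At E7.75, Hbb-bh1 was found in 80% of 140 cells (interval 72.4-86.3%), against 10.1% of E8.5 and 14.8% of E10.5 endothelial cells. Hba-x was found in 14 cells (10%, 5.58-16.2%), Hbb-y in 10.7% and alpha in 9.29%. The shares in E10.5 endothelium were higher (29.5%, 31.1% and 16.4%), and in E8.5 endothelium they were 11.4%, 1.27% and 3.8%. Adult beta was found in 15.7%, against 1.27% and 0% in the endothelial populations. The Hbb-bh1 level ran from 0 through a median of 1.58 CPM to 13417 CPM with a mean of 498 CPM, and the 8 cells with 10000 or more globin counts held 133083 of the 169284 Hbb-bh1 counts, with 35669 in a further 30 cells. With 10 counts or more required, 37.1% of the cells had Hbb-bh1. The lanes differed: 52 of 53 cells on lane 7 (98.1%) and 60 of 87 on lane 8 (69.0%) had Hbb-bh1, with median depths of 2759528 and 1620915 counts.

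Cell by cell, Hbb-bh1 was the globin found alone. Of the 100 E7.75 cells with exactly 1 of Hbb-bh1 and Hba-x, 99 had Hbb-bh1 (interval 94.6-100%), and 13 cells had both. The same imbalance was seen against Hbb-y (98 cells with Hbb-bh1 alone and 1 with Hbb-y alone), against alpha (2 cells with alpha alone, 98.1% with Hbb-bh1 alone) and against adult beta (92 and 2 cells). Among the 82 cells with a single kind of globin, 76 had Hbb-bh1. These numbers follow from the shares of cells above and from the higher mean level of Hbb-bh1, so an earlier start of the gene cannot be told apart from its greater abundance. The cell with the most Hbb-bh1 had 25973 counts of it, 516 of Hba-x and none of Hbb-y. Per kilobase of transcript, Hbb-bh1 made up 97.2% of the summed globin counts of the population.

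Haemato-endothelial cells held most of this signal. Hbb-bh1 averaged 766 CPM in the 91 haemato-endothelial cells of E7.75 and 1.22 CPM in the 49 other cells. Shares of cells with 10 counts or more were 56.0% and 2.04%. A single count was much more evenly spread, at 85.7% and 69.4%, and all 18 other cells on lane 7 had Hbb-bh1 at a mean of 1.54 CPM. Hba-x was found in 14.3% of haemato-endothelial and 2.04% of other cells, and Hbb-y in 16.5% and 0 of 49 cells, which allows up to 6.12%.

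**Figure D1:**
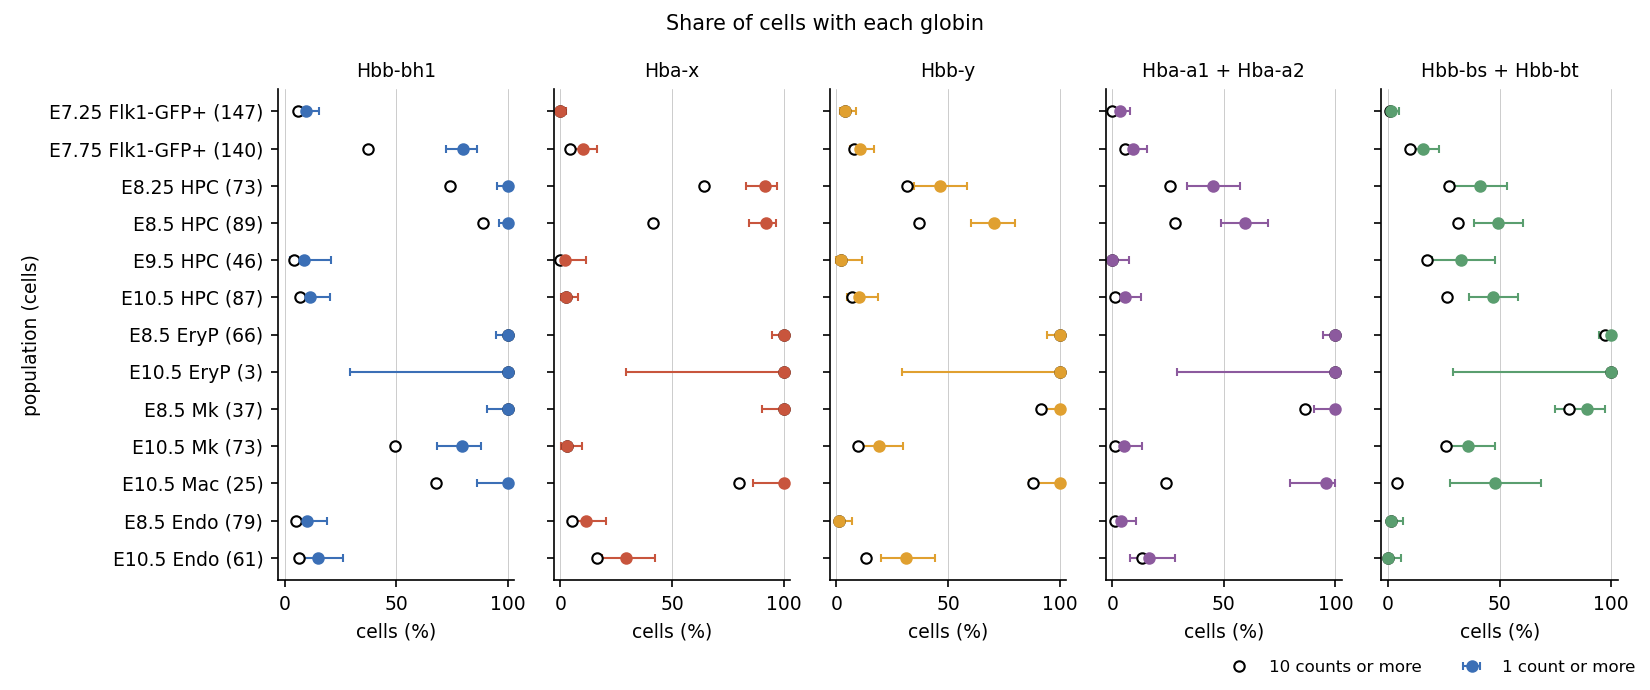
Share of cells (percent, horizontal axis) with Hba-x, alpha (Hba-a1 and Hba-a2), Hbb-bh1, Hbb-y and adult beta (Hbb-bs and Hbb-bt) in each of the 13 populations; filled points are 1 count or more with the exact 95% interval, and open points are 10 counts or more. Hbb-bh1 was found in 80% of E7.75 cells when Hba-x was found in 10%, and the filled and open points lie together at 100% in EryP for Hba-x, Hbb-bh1 and Hbb-y.

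The second question was how far progenitors carried globin. All 73 E8.25 HPC and all 89 E8.5 HPC had Hbb-bh1, and Hba-x was found in 91.8% and 92.1% of them. The levels were spread over several orders of magnitude between cells. In E8.25 HPC, Hbb-bh1 ran from 0.997 through a median of 37.1 to 31660.0 CPM, and Hba-x from 0 through 8.20 to 8021 CPM. In E8.5 HPC, Hbb-bh1 ran from 1.61 through a median of 112.7 to 26745 CPM, and Hba-x from 0 through 4.02 to 7347 CPM. The medians lay far below the highest cells, so the typical HPC held traces and a minority held a large amount. The summed globins exceeded 1% of all counts in 11 E8.25 HPC and in 10 E8.5 HPC, and the median shares were 0.00576% and 0.0136%.

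Hbb-y was found in 46.6% (34.8-58.6%) of E8.25 HPC and in 70.8% (60.2-79.9%) of E8.5 HPC, and after thinning to a common depth in 43.1% and 61.8%. Alpha was found in 45.2% and 59.6%, and adult beta in 41.1% and 49.4%. Requiring 10 counts brought Hbb-y to 31.5% and 37.1%, and Hba-x to 64.4% and 41.6%. The order of Hbb-y detection between the stages was kept at that threshold, and for Hba-x the later stage was then the lower.

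In cells with only 1 of a pair, Hba-x was mostly the one found, as its higher share of cells fixes. Hba-x without alpha was found in 36 E8.25 HPC and alpha without Hba-x in 2 (94.7% of the 38), with 31 and 2 at E8.5 (93.9%). Hba-x without Hbb-y was found in 35 cells and the reverse in 2 at E8.25, and in 22 and 3 at E8.5. No such imbalance was seen between Hbb-y and alpha at E8.25, where 13 cells had Hbb-y alone and 12 alpha alone, and at E8.5 the numbers were 17 and 7. At 10 counts or more the Hba-x and Hbb-y numbers at E8.5 were 16 cells against 12, so no order of onset is read from these pairs.

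The make-up of globin in HPC changed with its amount. In the 36 E8.25 HPC with fewer than 100 globin counts, Hba-x made up 25.0%, Hbb-bh1 60.6% and Hbb-y 11.3% of globin per kilobase, against 22.7%, 54.3% and 18.1% in E8.5 EryP. In the 24 cells with 100 to 10000 counts the shares were 3.18%, 90.1% and 3.89%. In the 13 cells with 10000 or more they were 13.3%, 83.3% and 1.81%. In E8.5 HPC, over the same 3 ranges, Hba-x was at 11.5%, 2.08% and 6.74%, Hbb-bh1 at 73.0%, 90.1% and 87.2% and Hbb-y at 8.88%, 5.71% and 4.51%. The cells were cut by amount, so these are ranges and not cell types.

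Cells with much globin also had erythroid markers. Across cells, the share of counts from globins and the mean log2 level of the erythroid markers had a Spearman rho of 0.87 in 73 E8.25 HPC and 0.80 in 89 E8.5 HPC, and of 0.67 in 140 E7.75 cells (0.64 and 0.69 within lanes 7 and 8). With the megakaryocyte markers the globin share had a rho of 0.59 at E7.75, and of 0.21 and 0.16 in E8.25 and E8.5 HPC. No E7.75 cell had more than 2 of these 5 markers. Itga2b was found in 39.3% of the E7.75 cells, Pf4 in 2.86%, Gp9 in 0.714% and Gp1bb in none. The cells of an HPC population share a sort and a lane, and all these measures are scaled within the same library.

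In E9.5 and E10.5 HPC the embryonic globins were at the level of endothelium. The earlier HPC were sorted through a different gate (CDH5+CD41+, against CDH5-CD45+CD41low here) and sequenced on the other flow cell. Stage therefore cannot be told apart from gate or sequencing run. Hbb-bh1 was found in 8.70% of E9.5 HPC and 11.5% of E10.5 HPC, Hba-x in 2.17% and 2.30%, and Hbb-y in 2.17% and 10.3%, all at or below the shares in E10.5 endothelium. The mean Hbb-bh1 level was 0.742 CPM at E9.5 and 4.11 CPM at E10.5. Alpha was found in 0 of 46 E9.5 HPC, which allows up to 6.52%, and in 5.75% of E10.5 HPC.

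Adult beta stood above the endothelial share. It was found in 32.6% of E9.5 HPC and 47.1% (36.3-58.1%) of E10.5 HPC, against 0 of 61 E10.5 endothelial cells, which allows up to 4.92%. It was also found in 48% of the 25 E10.5 Mac, though in 4% with 10 counts or more. In E10.5 HPC it was found without alpha in 38 cells and alpha without it in 2, and without Hbb-bh1 in 35 cells against 4. Adult beta was the sole globin in 14 of the 17 E9.5 HPC and 31 of the 40 E10.5 HPC with a single kind. Per kilobase of transcript it made up 74.5% and 58.5% of the globin of these populations, which rests on only 752 and 2957 globin counts in all. The mean levels were 3.52 and 9.57 CPM, no higher than the 26.0 CPM of E8.5 HPC, and 1.88 CPM at E9.5 without the cell with the highest value. With 10 counts or more, 26.4% of E10.5 HPC had adult beta.

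**Figure D2:**
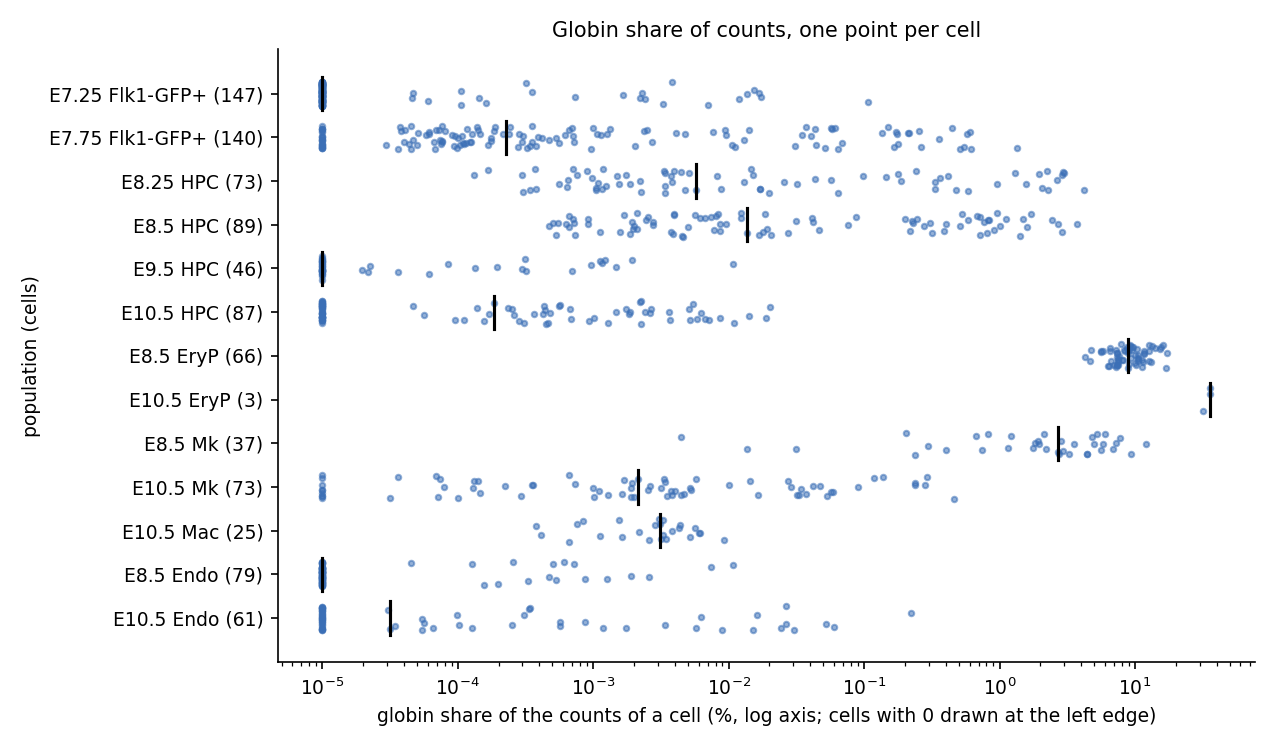
Share of all counts that came from the globin genes (percent, log axis) in each of the 926 cells by population; each point is a cell, the bar is the median, and cells without globin counts lie at the left edge. E8.5 EryP lie between 4.25% and 17.1% and E10.5 EryP between 31.5% and 36.0%, while E8.25 HPC, E8.5 HPC and E8.5 Mk spread over several orders of magnitude.

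The third question was what the primitive erythrocytes contained. All 66 E8.5 EryP and all 3 E10.5 EryP had Hba-x, alpha, Hbb-bh1, Hbb-y and adult beta. Globins took 4.25% to 17.1% of the counts of E8.5 EryP, with a median of 8.94%. In the 3 E10.5 EryP they took 31.5%, 35.4% and 36.0%, above every E8.5 cell. Over all captured cells, before the authors' filter, the order of the stages was turned, with medians of 8.18% in 84 E8.5 EryP and 1.75% in 25 E10.5 EryP.

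In E8.5 EryP, Hbb-bh1 ran from 24909 through a median of 55436 to 99782 CPM, and Hba-x from 14453 through 29808 to 61696 CPM. Hbb-y spread far more, from 10.9 through 17099.9 to 88785 CPM. Alpha ran from 1542 through 4716 to 12112 CPM and adult beta from 1.08 through 236 to 2312 CPM. Hbb-bh1 and Hba-x thus stayed within an order of magnitude in these cells, whereas Hbb-y and adult beta did not.

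In the 3 E10.5 EryP, Hbb-y was at 238267, 292217 and 254260 CPM. Hbb-bh1 was at 121738, 160822 and 150810 CPM, and Hba-x at 127985, 113281 and 106956 CPM. For each of these genes all 3 cells lay above every E8.5 EryP. Alpha was at 22951, 28827 and 20070.3 CPM, also above every E8.5 cell, and adult beta at 4852, 6269 and 256 CPM, of which the last lay inside the E8.5 range.

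The embryonic beta-like genes differed between these stages in their balance. Per kilobase, Hbb-bh1 made up 54.3% of globin in E8.5 EryP and 28.1% in E10.5 EryP, and Hbb-y made up 18.1% and 49.3%. Within cells, the Hbb-y share of Hbb-y plus Hbb-bh1 ran from 0.0262% through a median of 19.2% to 51.2% in E8.5 EryP, and was 65.5%, 63.8% and 62.0% in the 3 E10.5 cells. No E8.5 EryP reached the lowest E10.5 value. In 4 of the 66 E8.5 cells the share was below 1%, in 52 above 10% and in 7 above 40%. The 22 further E10.5 EryP that did not pass the authors' filter are described in the closing section.

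The Hbb-y share moved with the amount of globin. Across the 66 E8.5 EryP, its Spearman rho with the globin share of counts was 0.72, with Alas2 (the first enzyme of haem synthesis in red cells) 0.50 and with Slc4a1 (the band 3 anion exchanger) 0.52. With total counts it was -0.24. Hba-x and Hbb-bh1 had a rho of 0.86 with each other, and adult beta and Hbb-y one of -0.01. These cells share a sort and a lane, and a share of globin is part of the globin total.

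The balance of the alpha-like genes was similar at both stages of EryP. The Hba-x share of Hba-x plus alpha, per kilobase, had a median of 83.6% in E8.5 EryP (76.1-91.0%) and was 81.9%, 76.0% and 81.2% in the E10.5 EryP. It was 89.4% in the 21 E8.25 HPC, 85.7% in the 27 E8.5 HPC and 88.8% in the 37 E8.5 Mk with 50 counts or more of these genes, with ranges of 24.3-100%, 9.60-100% and 65.8-98.2%. In the 25 captured E10.5 EryP it ran from 65.5% to 96.9%. Across the 66 E8.5 EryP it was lower where the globin share of counts was higher (rho -0.46). All 3 E10.5 cells lay below the E8.5 median, and 1 of them (76.0%) just below the lowest E8.5 cell (76.1%). The median in E8.5 EryP depended on the transcript length taken for Hba-x and was 87.2% from the RefSeq start.

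Counts per kilobase of alpha-like globin were lower than those of beta-like globin. If reads that fit both alpha genes were dropped in counting, the sum of the pair is too low, which bears on this ratio and on the Hba-x share. The ratio of alpha-like to beta-like globin per kilobase had a median of 0.378 in E8.5 EryP (0.258-0.522), and was 0.335, 0.254 and 0.254 in the E10.5 EryP. In E8.5 EryP it was lower where the Hbb-y share was higher (rho -0.69 over 66 cells), and both measures contain Hbb-y. In HPC it was far lower, with medians of 0.0843 in 42 E8.25 and 0.0320 in 64 E8.5 cells. The ranges in HPC reached 0.469 and 0.282, so some single progenitors had the balance of EryP.

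**Figure D3:**
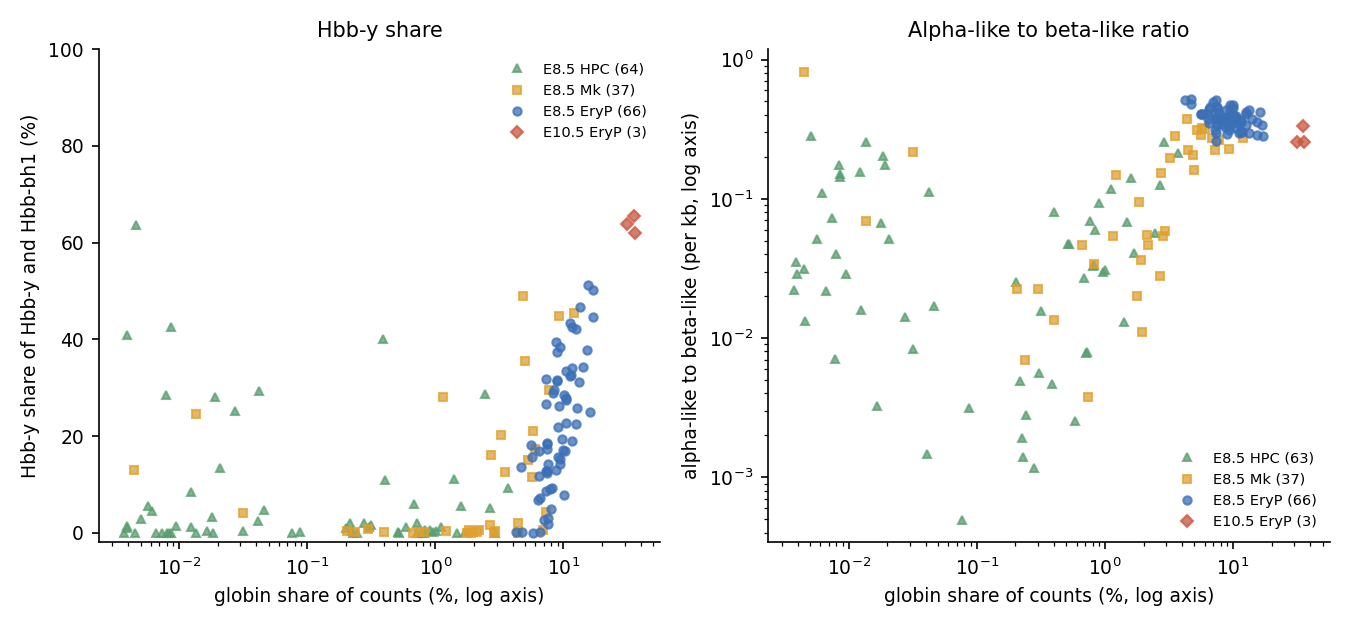
Each point is a cell with 50 or more counts of the denominator, against its globin share of counts (percent, log axis); left, Hbb-y as a percent of Hbb-y plus Hbb-bh1, and right, the ratio of alpha-like to beta-like counts per kilobase, for E8.5 HPC, E8.5 Mk, E8.5 EryP and E10.5 EryP. The E8.5 EryP run from an Hbb-y share of 0.0262% to 51.2%, and the 3 E10.5 EryP lie above them at 62.0% to 65.5%.

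The adult beta genes made up a median of 0.318% of beta-like globin in E8.5 EryP and 0.0570%, 1.19% and 1.24% in the E10.5 EryP. They also differed from one another. Hbb-bs had a median share of 80.3% of the adult beta counts in the 61 E8.5 EryP with 50 counts or more of these genes, and of 80.9% in 24 E8.5 Mk. In the 3 E10.5 EryP the share was 2.96%, 18.3% and 10.1%, and in 11 E8.5 HPC it had a median of 2.88% (0.806-33.9%). In 11 E8.25 HPC the median was 45.3%, with 3 cells above 50% and 4 below 10%. The medians were 2.15% in 10 E10.5 HPC and 7.86% in 10 E10.5 Mk.

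The Hbb-bs share was far from uniform within a population. Among E8.5 EryP it ran from 9.29% to 98.2%, with 49 of 61 cells above 50% and 25 above 90%. Among the 24 E8.5 Mk, 15 were above 50% and 6 below 10%. The mean Hbb-bt level was 75.1 CPM in E8.5 EryP and 3354 CPM in E10.5 EryP, while that of Hbb-bs was 305 and 439 CPM, and in E10.5 EryP 84.7 CPM without the highest cell. As these genes share long stretches of sequence, the split depends on how reads that fit both were counted, which was not tested. The share did not move with the Hbb-y share (rho 0.05), the globin share (0.08) or total counts (0.10) across the 61 E8.5 EryP.

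**Figure D4:**
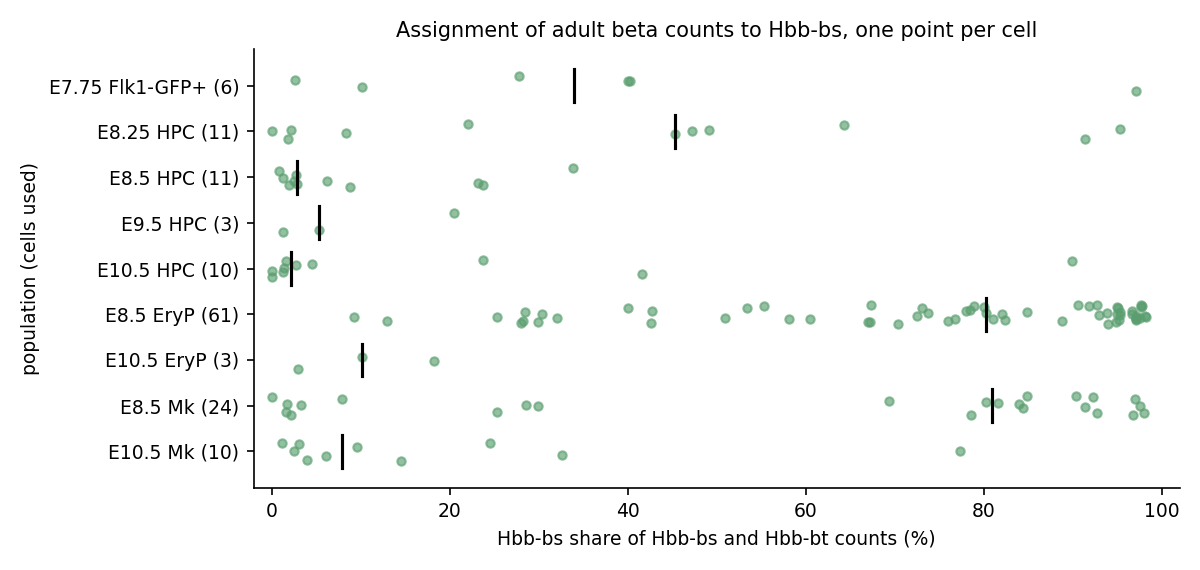
Hbb-bs as a percent of Hbb-bs plus Hbb-bt counts in each cell with 50 or more such counts, by population; each point is a cell and the bar is the median. The medians are 80.3% in E8.5 EryP and 80.9% in E8.5 Mk, against 2.88% in E8.5 HPC and 10.1% in E10.5 EryP.

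The pseudogene Hbb-bh0 was found where globin was most abundant. It was found in 52 of 66 E8.5 EryP (78.8%), 3 of 3 E10.5 EryP and 14 of 37 E8.5 Mk (37.8%), in 6.74% of E8.5 HPC, 2.74% of E8.25 HPC and 1.43% of E7.75 cells, and in no cell of the other 7 populations. Its mean level was 18.0 CPM in E8.5 EryP, 56.8 CPM in E10.5 EryP and 4.59 CPM in E8.5 Mk.

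The fourth question was what the megakaryocyte sorts held. Every E8.5 Mk had Hba-x, alpha, Hbb-bh1 and Hbb-y, and 89.2% had adult beta. Globins took from 0.00445% through a median of 2.69% to 12.0% of the counts, and exceeded 1% in 27 of 37 cells. Hbb-bh1 ran from 19.2 through a median of 21452 to 58584 CPM, and 69.7% of globin per kilobase was Hbb-bh1, 14.0% Hba-x and 13.8% Hbb-y.

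The within-cell balances of the E8.5 Mk were widely spread. The Hbb-y share of Hbb-y plus Hbb-bh1 ran from 0.00347% through 1.56% to 49.0%, below 1% in 18 cells, above 10% in 15 and above 40% in 3. The alpha-like to beta-like ratio ran from 0.00378 through 0.149 to 0.819. Its highest value came from the cell with the least globin, with 87 counts of Hba-x and 78 of Hbb-bh1, and the next was 0.377. In the summed counts of the 6 cells with 100 to 10000 globin counts, the cell with the least globin among them, Hbb-bh1 was 95.5% of globin per kilobase and Hba-x 2.45%. In the 31 cells with more, they were 69.5% and 14.1%.

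The amount of globin in E8.5 Mk moved with lineage markers. Across the 37 cells the globin share of counts had a rho of 0.85 with the erythroid markers and of -0.50 with the megakaryocyte markers, and of 0.62 with the alpha-like to beta-like ratio. Slc4a1 was found in 21.6% of these cells, against 98.5% of E8.5 EryP. The part of erythroid cells in this sort was not tested.

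In E10.5 Mk, Hbb-bh1 stayed detectable in 58 of 73 cells (79.5%, 68.4-88.0%), above the 14.8% of E10.5 endothelium, which had a median depth of 1943904 counts against 1668712. Its level ran from 0 through a median of 7.59 to 4999 CPM, and 36 cells had 10 counts or more. The other globins were found in fewer cells, with Hba-x in 2 cells (2.74%), alpha in 5.48%, Hbb-y in 19.2% and adult beta in 35.6%. Hbb-bh1 was found without Hba-x in 57 cells and Hba-x without Hbb-bh1 in 1.

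Of the E10.5 Mk, 9 had no globin, 32 had 1 kind (26 of them Hbb-bh1) and 26, 4 and 2 had 2, 3 and 4 kinds. In the summed counts Hbb-bh1 made up 88.9% per kilobase, adult beta 6.15% and Hba-x 0.0647%. One cell, with 0.463% of its counts from globins, held 17394 of the 49413 counts of Hbb-bh1 and no count of Hba-x, alpha or Hbb-y. Another cell held most of the alpha, Hbb-y and adult beta counts, with 896 counts of alpha, 208 of Hbb-bh1, 1174 of Hbb-y and 2679 of adult beta. The globin share of counts and the erythroid markers had a rho of 0.18 across the 73 cells.

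Macrophages and endothelium, sorted against TER119, gave the remaining low levels. All 25 E10.5 Mac had Hba-x, Hbb-bh1 and Hbb-y, 96.0% had alpha and 48% adult beta. The amounts were small: Hba-x ran from 0.733 through a median of 6.15 to 42.7 CPM, and globins took 0.000381% to 0.00931% of the counts. The cell with the highest Hba-x level held 79 counts of it, 12 of alpha, 45 of Hbb-bh1 and 1 of adult beta, and its most abundant globin by counts was Hbb-y.

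The embryonic genes had shares of this globin near those in E10.5 EryP. Per kilobase, Hbb-y was 44.1% of it, Hbb-bh1 23.7% and Hba-x 19.2%, against 49.3%, 28.1% and 17.6% in E10.5 EryP. Alpha was 10.2% against 4.37%, and adult beta 2.84% against 0.615%, with 51 of its 66 counts in 1 cell. The alpha-like to beta-like ratio had a median of 0.355 in 13 cells (0.0705-0.869). The Hbb-y share of Hbb-y plus Hbb-bh1 had a median of 65.1% in 12 cells (50.4-75.2%), against 62.0% to 65.5%. The library names in the labels join both populations under 1 name, and they were sequenced on 1 lane. Erythroid markers in these cells summed to a median of 0 CPM (0-26.5), macrophage markers to 2647 CPM, and the globin share had a rho of -0.60 with total counts over 25 cells. Whether EryP RNA entered these libraries was not tested.

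In E8.5 endothelium all globins together came to 572 counts in 79 cells, with Hba-x in 11.4% and Hbb-y in 1.27% of cells, and Klf1 and Gata1 in none. In E10.5 endothelium, Hba-x was found in 29.5% and Hbb-y in 31.1% of cells. The mean Hba-x level was 75.2 CPM, and 15.2 CPM without the cell that held 1289 counts of it beside 6 of Hbb-bh1, 1 of Hbb-y and none of alpha. Another cell held 907 counts of Hbb-y and 519 of Hba-x with none of Hbb-bh1. Hba-x and Hbb-y were 35.2% and 49.0% of globin per kilobase and Hbb-bh1 12.0%. Without the cell with 1289 counts they were 23.3%, 58.0% and 14.1%.

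**Figure D5:**
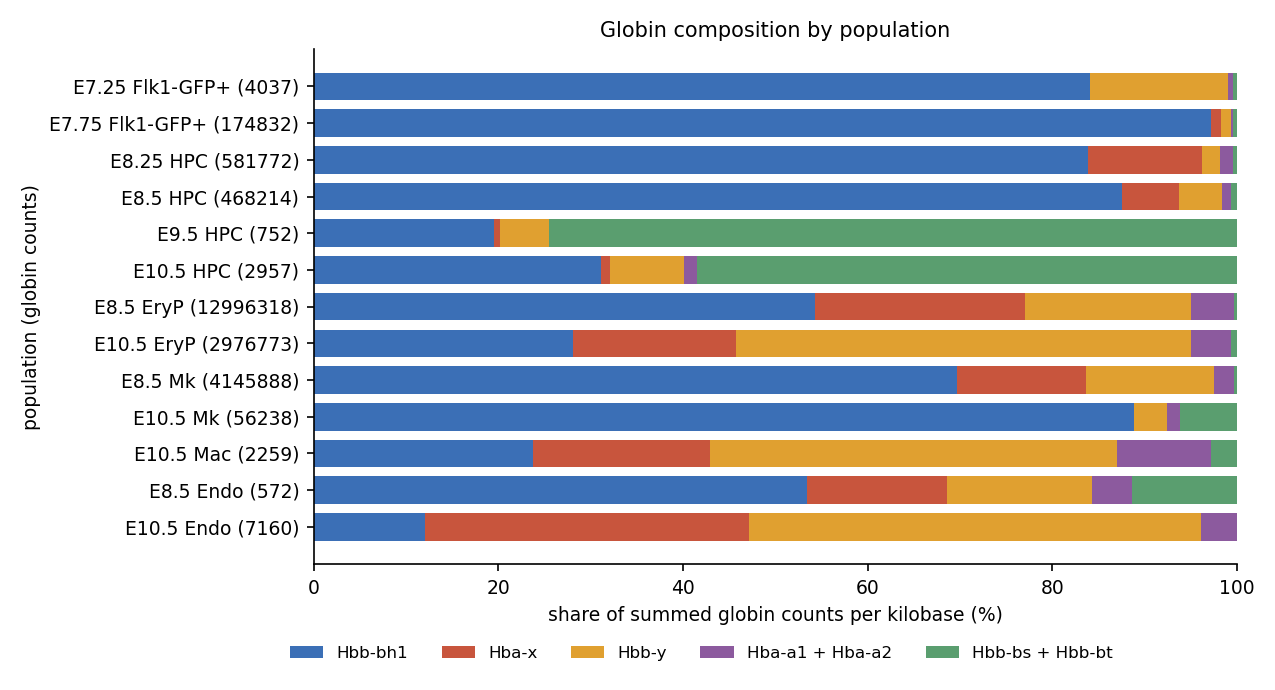
Share of each globin in the summed globin counts per kilobase of transcript (percent, stacked to 100) by population; the number in parentheses is the summed globin count behind the bar. Hbb-bh1 makes up 97.2% at E7.75 and 88.9% in E10.5 Mk, Hbb-y 49.3% in E10.5 EryP, and adult beta 74.5% in E9.5 HPC, from only 752 counts.

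Set side by side over 13 populations, the mean levels shared the same leading order. Hbb-y, Hba-x, Hbb-bh1, alpha and adult beta were all highest in E10.5 EryP, next in E8.5 EryP and then in E8.5 Mk. The next place went to E8.25 HPC for Hba-x (652 CPM), Hbb-bh1 (3675 CPM) and alpha (64.2 CPM), and to E8.5 HPC for Hbb-y (184 CPM, against 92.8 CPM) and adult beta (26.0 CPM, against 22.7 CPM in E10.5 Mk). These neighbours lay within the spread of their cells. Without the highest cell, Hbb-y was 114.2 CPM in E8.5 HPC and 45.3 CPM in E8.25 HPC, and adult beta 7.52 CPM in E10.5 Mk. E10.5 EryP here are the 3 cells that passed the filter. Over all captured cells, scaled by total counts, E10.5 EryP were still above E8.5 EryP for Hbb-y (52489 and 14105), Hba-x (23794 and 21931), alpha (4840.2 and 3719) and adult beta (742 and 292), and were below them for Hbb-bh1 (28233 and 41001.5).

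Mean levels were then compared between populations as log2 ratios of mean CPM + 1, over genes averaging at least 1 CPM in one of the populations, with a ratio of 4-fold or more counted. Each population being 1 sample, the counts of members are set beside the share of all tested genes past the same fold, and the other genes of the erythroid programme are a list of 32, of which 31 were in the table. The number of globins given each time is that which passed the level filter, through whichever population was the higher. From E7.25 to E7.75, 2 of 4 globins were 4-fold or more higher (1.16% of all genes), Hbb-bh1 by 4.96 on the log2 scale and Hba-x from a mean of 0 to 5.65 CPM. Hba-x was past the fold through 1 cell, without which it averaged 2.35 CPM (1.74), and by medians over cells neither was. Of the programme, 7 of 29 were, among them the transcription factor Klf1.

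Between E8.25 and E8.5 HPC, 0 of 7 globins were 4-fold higher (0.654% of all genes) and 0 of 30 programme genes, and the ratios ran from -1.14 for Hbb-bs to 0.98 for Hbb-y. From E8.5 to E9.5 HPC, 6 of 7 globins were 4-fold or more lower (4.38%), the exception being Hbb-bs at -1.46, and 9 of 30 programme genes. Hbb-bs averaged only 2.61 CPM in E8.5 HPC and 0.310 CPM in E9.5 HPC. With the pseudocount of 1 CPM no fall from that level could pass 4-fold, so its exception was fixed beforehand. From E8.5 to E10.5 HPC, 5 of 7 globins were 4-fold or more lower (2.9%), and 7 of 30 programme genes. The exceptions were Hbb-bt at -1.43 and Hbb-bs at -0.54, of which Hbb-bs again could not have passed. By medians over cells, which were 0 for most of the globins, 2 globins were past the fold in each comparison. The HPC gate and the flow cell changed after E8.5, so stage cannot be told apart from either. The genes lower by the largest ratio were Hbb-bh1 (-10.84 and -9.29) and Hba-x (-8.38 and -8.13). At E9.5 they averaged 0.742 and 0.0273 CPM, under the pseudocount. Their ratios there mainly follow the E8.5 means of 3191 and 341 CPM, so their order is not read as a stronger fall.

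From E8.5 to E10.5 Mk, 7 of 8 globins were 4-fold or more lower (3.67%), with Hbb-bt at -0.56 as the exception, and 12 of 30 programme genes, Alas2 and Slc4a1 among them. These 2 sorts also differed in gate and flow cell, which cannot be told apart from stage. In E10.5 Mk 1 cell held 69.2% of the Hbb-bt sum, and the mean was 6.26 CPM without it against 20.0 CPM with it and 30.1 CPM in E8.5 Mk. Without that cell Hbb-bt was past 4-fold too, so the exception rests on 1 cell. Hba-x was lower by more (-12.11) than Hbb-bh1 (-6.16). Between the endothelial populations 2 of 4 globins were higher at E10.5 (7.85%), Hba-x by 5.41 and Hbb-y by 3.99, with 2 of 20 programme genes (Fech and Sox6). Those means rest on few cells, and by medians over cells 0 globins were past the fold.

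From E8.5 to E10.5 EryP, 4 of 8 globins were 4-fold or more higher (4.95%), which were Hbb-bt (5.46), Hbb-y (3.70), Hba-a2 (2.28) and Hba-a1 (2.25). Scaled by total counts in place of size factors, the means were 4449 and 1243 for Hba-a2 and 10354 and 2925 for Hba-a1, which is under 4-fold. Over all captured cells the means were 1578 and 1039 for Hba-a2, 3262 and 2680.3 for Hba-a1, 52489 and 14105 for Hbb-y, and 658 and 52.8 for Hbb-bt, of which the last alone is past 4-fold. Hba-x (1.92), Hbb-bh0 (1.60), Hbb-bh1 (1.36) and Hbb-bs (0.52) were not. The median over all genes was -1.42 in this comparison, so every one of the 8 lay above it. Of the programme, 2 of 31 were higher (Sptb and Zbtb7a), and Alas2 and Slc4a1 were not past this ratio. E10.5 EryP here are 3 cells.

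At E8.5, EryP exceeded HPC by 4-fold or more in 7 of 8 globins (2.21%), all but Hbb-bt, and in 19 of 31 programme genes. They exceeded endothelium in 8 of 8 (4.83%) and in 25 of 31. They exceeded Mk in 3 of 8 (2.32%), Hba-a2 (3.01), Hba-a1 (2.46) and Hba-x (2.25), and in 10 of 31 programme genes, with Hbb-y at 1.98 and Hbb-bh1 at 1.31, and in 6 globins by medians over cells. In these comparisons the EryP samples are the same.

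Lastly, genes whose mean level followed the globins most closely over the 13 populations were sought among 12316 genes. Those most like Hba-x by Pearson r of log2(mean CPM + 1) were Ank1 (0.94), Redrum (0.93), Alas2 (0.93), Blvrb (0.92) and Add2 (0.92). Among those most like Hbb-bh1 were Trim10 (0.97), Slc38a5 (0.97), Mpp2 (0.96) and Reep6 (0.95). Hbb-y was most like Blvrb (0.97), Ank1 (0.95), Slbp (0.95), Hbb-bh2 (0.95) and Reep6 (0.95), and alpha was most like Ank1 (0.97), Redrum (0.97), Trim10 (0.96), Trib3 (0.96) and Slbp (0.96). Ank1 encodes the ankyrin and Add2 an adducin of the red cell membrane skeleton, and Blvrb a biliverdin reductase. The globins followed one another at 0.97 for Hba-x and Hbb-y, 0.88 for Hba-x and Hbb-bh1 and 0.77 for Hba-x and Hbb-bt. By Spearman rho the likeness was lower for many of them, at 0.74 for Ank1, 0.69 for Redrum and 0.80 for Alas2 with Hba-x. These values are descriptions over 13 points that share depth and flow cell within each population.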

How the data were processed

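The deposited tables held counts per gene for 1073 captured cells, and counts and CPM for the 926 cells and 15967 genes that passed the authors' filter. Per the methods, the authors aligned paired reads to Ensembl release 84 (GRCm38) with Rsubread, counted with featureCounts, filtered with scater and scaled by scran. The handling of strand and of reads that fit several genes is not given in the sources used here. The deposited CPM values are a signal equal to the counts times 1 factor per cell. The depth is given in the report.

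From these, with Python 3.11.15, numpy 2.4.6, pandas 2.3.3 and scipy 1.17.1, detection (1 count or more), mean and median CPM, discordant cells for pairs of genes, and ratios in cells with 50 counts or more of the denominator were computed. Ratios used GENCODE M21 transcript lengths. Shares were also computed after thinning to 840000 counts, which left out 46 shallower cells. The ratio and fold steps were tested on simulated data. No doublet caller was run. Fold ratios used a pseudocount of 1 CPM. Named genes were the 8 members, the 5 most similar genes to Hba-x, Hbb-y, Hbb-bh1 and alpha, and genes of the erythroid programme and marker lists. The members and lists were chosen with earlier results of these data known. Cells seen in the top ranks were named after their values were seen. One gene that these rules name is not reported here.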

Additional observations from a re-analysis of the deposited data

Results flagged for a closer look

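The cells that did not pass the authors' filter are outside most comparisons of the report, and those of the EryP and E8.5 Mk sorts held globin above the level of endothelium. Of 25 captured E10.5 EryP, 22 were left out, with a median of 1964.5 genes found per cell, and globins took a median of 1.60% of their counts (0.434-47.0%), above 10% in 5 cells. Their Hbb-y share of Hbb-y plus Hbb-bh1 had a median of 59.8% and ran from 19.4% to 86.7%, so that the 3 cells that passed lie inside this range.

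Of 84 captured E8.5 EryP, 18 were left out, and their globin share had a median of 2.22% (0.0668-10.8%) with a median Hbb-y share of 8.51%. Of 53 captured E8.5 Mk, 16 were left out, with a median globin share of 0.469% (0.0170-7.32%). The medians in E8.5 and E10.5 endothelium that passed were 0% and 0.0000317%.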

How the results depend on the processing

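Of 1447 single values under an alternative setting, 1182 kept their value within the spread or within 1.5 times and 1 changed direction: Hbb-bh1 alone against alpha alone at E7.25 was 76.5%, and 40% on lane 7. Turned orders between populations are not counted in this tally. Over all captured cells the EryP stages changed order in their median globin share, and in Hbb-bh1 scaled by total counts. With 10 counts or more the E8.25 and E8.5 HPC changed order in the share of cells with Hba-x. With 10 counts or more, Hba-x was found in 41.6% of E8.5 HPC (92.1% with 1 count), Hbb-bh1 in 37.1% of E7.75 cells (80%) and adult beta in 26.4% of E10.5 HPC (47.1%). Hbb-bh1 at E7.75 was 68.9% after thinning to 1 depth, 98.1% on lane 7 and 69.0% on lane 8. Its lead over Hba-x (99%) was 100% with 10 counts, after thinning and on lane 7, and the lead of Hba-x over alpha in E8.25 HPC (94.7%) was 100% with 10 counts. The mean Hbb-y level of E10.5 EryP, 261581 CPM, was 162776 when scaled by the total of all counts and 52489 with all captured cells, where the Hbb-y share was 61.3% (63.8%). In E8.5 EryP the log2 ratio of alpha-like to beta-like (-1.40) was -1.07 without length correction and -1.05 with the Hba-x length from the RefSeq start, with which the Hba-x share was 87.2% (83.6%). This length, the joined exon length and the mean without the highest cell were alternatives chosen after seeing the data.

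The number of genes past 4-fold moved with the pseudocount (0.1 and 10 CPM) and with the median over cells. For E7.75 against E7.25 it was 457, 11 and 89 (162 with 1 CPM and the mean). For E8.5 against E8.25 HPC it was 426, 1 and 312 (90). With 0.1 and 10 CPM it was 1266 and 86 for E9.5 HPC (608), 863 and 73 for E10.5 HPC (409), 687 and 39 for E8.5 EryP against Mk (296) and 511 and 93 against HPC (300). For E10.5 Mk it was 896, 68 and 786 (482), and for E8.5 EryP against endothelium 1029, 193 and 1094 (668). With 10 CPM it was 264 for E10.5 endothelium (1088; 130 by medians) and 335 for E10.5 EryP (575). The globins past 4-fold were 1 with 10 CPM and 0 by medians for E7.75 and likewise for E10.5 endothelium (2 each), and by medians 2 in E9.5 HPC (6), 2 in E10.5 HPC (5) and 6 for EryP against Mk (3). The cause was not tested. No paired analysis was possible because each population is 1 sample and the numbers in the labels only name cells. At this depth shares of cells near those of endothelium are not read as expression, and the 3 E10.5 EryP allow no statement on the spread of that stage.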
